A study of Homo sapiens with 4 samples.

Results

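The genes described here are 10 genes of metal handling, 7 metallothioneins (MT1A, MT1E, MT1F, MT1G, MT1M, MT1X and MT2A), the transcription factor MTF1, the zinc exporter SLC30A1 and the zinc importer SLC39A10. They were taken by gene symbol from the 23459 genes listed in each count file, and all 10 were found. The RNA-Seq profiles come from hTERT RPE-1 cells of wild type genotype, a human epithelial line that originated in the retinal pigment epithelium and carries telomerase. Both groups were kept for 48 h in medium with 0.1% FBS and then given merbarone, a catalytic inhibitor of type II topoisomerases, at 200 μM for 240 min (4 h, 2 libraries) or 480 min (8 h, 2 libraries). Untreated cells were not analysed here, so every change is between 4 h and 8 h of exposure, and time of exposure and time in culture cannot be told apart.

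Metallothioneins are small, cysteine-rich cytosolic proteins that bind zinc and copper and buffer their free levels, and that also bind toxic metals such as cadmium. Zinc is sensed by MTF1, a zinc finger protein that binds metal response elements in the promoters of metallothionein genes and of SLC30A1. SLC30A1 (ZnT1) moves zinc out of the cell, while SLC39A10 (ZIP10) brings it in and is known to be repressed by MTF1 when zinc is high. Metallothionein genes are also known to respond to glucocorticoids and to oxidative stress.

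Between 4 h and 8 h the mRNAs of MT2A, MT1E, MT1X, MT1M and MT1F rose, by 1.40-fold (MT1E) to 2.51-fold (MT1F). MTF1 rose 1.48-fold and SLC39A10 1.35-fold. SLC30A1, with a log2 fold change of 8 h against 4 h (log2FC) of 0.10, did not pass the test. MT1G was too low to be tested and MT1A had no read in any library. In all, 7 of the 8 tested members were higher at 8 h at an adjusted p below 0.05 (edgeR quasi-likelihood test), none was lower, and 19.9% of the 12559 tested genes were called higher by the same rule. The median log2FC of the 8 tested members was 0.66, and over all tested genes it was 0.00. One member, MT1F, also passed the fold threshold of an absolute log2FC above 1, which 1.45% of all tested genes passed upwards. In 7 of the 8 both 8 h libraries were above both 4 h libraries, as in 34.8% of all tested genes. With DESeq2 5 members were called higher (14.3% of all genes), and without replicate 2 of 4 h, 4 members (12.9% of all genes). The 8 tested members had a CPM above 1 at both times, so none of them was tested through its 8 h values alone. The members were chosen with earlier results of these data known, so the shares of all genes are no independent yardstick for them.

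The depth was 8064450 to 10324697 counts per library. The replicates differed by more than read sampling, with a chi-square statistic per degree of freedom of 2.67 at 4 h and 3.84 at 8 h. The paper calls them biological replicates, and the labels do not say how the replicate cultures were made. The p-values measure the spread between these libraries, with the variance of each gene estimated in part from the other tested genes. Of 11 markers of differentiated retinal pigment epithelium, only MITF, OTX2, SERPINF1 and PMEL had enough reads to be tested, none of them was called, TYR was at 0, and RPE65 had 2 to 7 counts per library. The epithelial keratins KRT8 and KRT18 had 1927 to 3966 counts per library, and KRT18 fell (log2FC −0.51, edgeR adjusted p = 3.72e-05). Of 5 markers of other cell types, HBB was at 0 and the others had at most 8 counts in a library, summing to 7 to 12 counts, and their part in the results was not tested. In these bulk libraries a lower level in every cell and fewer cells with the mRNA cannot be told apart.

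The metallothionein members lie together on chromosome 16, between 56642496 (the start of MT2A) and 56718108 (the end of MT1X) on hg19. They are near copies of each other, which bears on every count given here, because only reads placed at 1 genomic position were kept. Each has 3 coding exons. The middle exon has 66 bases (69 in MT1G), fewer than the 75 bases of a read, so an unspliced read cannot lie within it. The coding part of the third exon, 89 bases without the stop codon, shows how alike the genes are. It is given below from GRCh37, 5′ to 3′ on the coding strand, with capitals at each base that differs from MT2A.

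MT2A (chromosome 16, 56643175 to 56643263, plus strand): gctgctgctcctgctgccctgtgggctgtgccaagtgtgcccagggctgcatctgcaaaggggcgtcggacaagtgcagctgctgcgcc
MT1E (56660792 to 56660880, plus strand): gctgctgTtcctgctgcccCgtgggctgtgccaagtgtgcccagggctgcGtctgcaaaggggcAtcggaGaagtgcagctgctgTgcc
MT1M (56667663 to 56667751, plus strand): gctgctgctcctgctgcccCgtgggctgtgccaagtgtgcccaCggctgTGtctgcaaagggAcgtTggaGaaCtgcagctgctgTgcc
MT1A (56673771 to 56673859, plus strand): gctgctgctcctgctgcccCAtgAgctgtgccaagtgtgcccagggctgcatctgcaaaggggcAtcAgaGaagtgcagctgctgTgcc
MT1F (56692985 to 56693073, plus strand): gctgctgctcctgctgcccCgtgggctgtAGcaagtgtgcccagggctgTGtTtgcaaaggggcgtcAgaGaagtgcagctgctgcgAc
MT1G (56700794 to 56700882, minus strand): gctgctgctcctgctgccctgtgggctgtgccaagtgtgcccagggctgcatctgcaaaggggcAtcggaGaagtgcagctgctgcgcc
MT1X (56717870 to 56717958, plus strand): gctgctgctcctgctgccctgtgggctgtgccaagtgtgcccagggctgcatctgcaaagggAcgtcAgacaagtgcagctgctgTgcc

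MT1G differed from MT2A at 2 of the 89 bases and MT1X at 3. MT1E differed from it at 6 bases, MT1A at 7, and MT1F and MT1M at 9 each. Over all pairs of these genes the number of differing bases ran from 2 to 10.

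The number of places from which a read could be retained was therefore counted. Every stretch of 75 bases inside an exon was compared with the whole of GRCh37 on both strands, and it was called unique when no other place matched with at most 2 mismatches. MT1F had 211 such windows, all of them unique. MT1A had 182 windows with 169 unique, MT1G 193 with 172, and MT1M 184 with 162. The smallest shares were those of MT1E, with 146 of 184 (79.3%), MT1X, with 153 of 190 (80.5%), and MT2A, with 152 of 187 (81.3%). Of the windows of MT1E that were not unique, all 38 had a second match within the metallothionein cluster, against 20 of 35 for MT2A and 11 of 37 for MT1X. For MTF1, SLC30A1 and SLC39A10, at least 98.1% of the windows were unique. By this count every metallothionein member had between 146 and 211 unique windows, and the deposited counts ran from 0 to 7730. The annotation behind the deposited counts is not given, so the positions counted there may differ from these windows. The part of unique placement in the differences between counts was not tested.

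**Figure D1:**
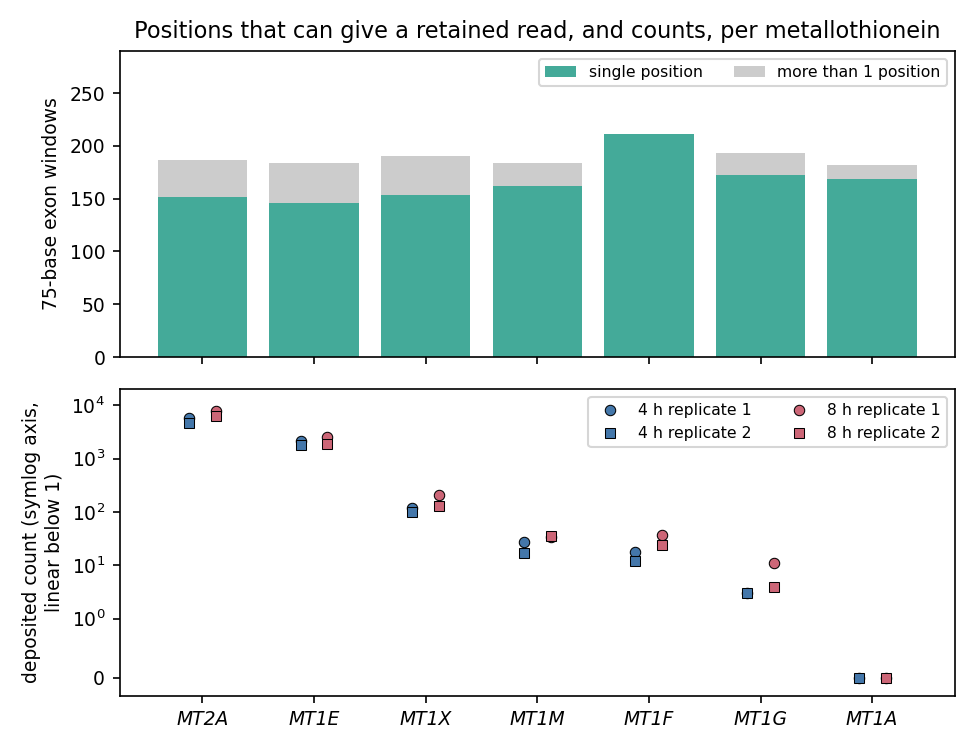
Top, number of 75-base windows inside the exons of each metallothionein that match a single position of GRCh37 (green) or more than 1 (grey), with at most 2 mismatches. Bottom, deposited counts of the 4 libraries on a symlog axis, blue for 4 h and red for 8 h, circles for replicate 1 and squares for replicate 2. Unique windows range from 146 to 211, while counts range from 0 in MT1A to 7730 in MT2A.

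The level of each mRNA is given as TMM-normalized CPM, counts scaled to library size and corrected for library composition. MT2A, the most abundant metallothionein, had 533.4 and 441.0 CPM in replicates 1 and 2 at 4 h, from 5698 and 4663 reads. At 8 h it had 824.7 and 831.3 CPM, from 7730 and 6414 reads. Both 8 h libraries were above both 4 h libraries, and the 8 h replicates were closer to each other than those of 4 h. The means were 487.2 ± 65.4 and 828.0 ± 4.70 CPM (SD, n = 2 each), with a log2FC of 0.77 (standard error, SE, 0.08, edgeR adjusted p = 6.09e-07).

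MT1E, the second in abundance, had 200.1 and 169.7 CPM at 4 h and 276.5 and 241.1 CPM at 8 h. These came from 2138 and 1795 reads, and from 2592 and 1860 reads. In CPM the times did not overlap. The log2FC was 0.49 (SE 0.09, edgeR adjusted p = 0.000296), the smallest of the 5 tested metallothioneins, and its 95% interval ran from 0.30 to 0.67.

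MT1X had 11.05 and 9.55 CPM at 4 h (118 and 101 reads) and 22.0 and 16.7 CPM at 8 h (206 and 129 reads). Its log2FC was 0.92 (SE 0.18, edgeR adjusted p = 0.000497). The 8 h libraries were both above those of 4 h but differed between themselves more than those of 4 h did. A lncRNA without a symbol overlaps an exon of MT1X on the same strand in the GENCODE annotation, and it is not among the listed genes under that name. No gene listed under its GENCODE name overlapped any other member. Unlisted names overlap MTF1 (among them AL929472.1, a protein-coding gene on the same strand) and SLC39A10, none of them at an exon.

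MT1M and MT1F rested on few reads. MT1M had 27 and 17 reads at 4 h and 34 and 35 at 8 h, which is 2.53 and 1.61 CPM against 3.63 and 4.54 CPM. Its log2FC was 0.96 (SE 0.33, edgeR adjusted p = 0.0261). This call did not hold with DESeq2 (adjusted p = 0.148), without replicate 2 of 4 h (edgeR adjusted p = 0.234) or without replicate 2 of 8 h (edgeR adjusted p = 0.0995).

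MT1F had 18 and 12 reads at 4 h and 37 and 24 at 8 h, or 1.69 and 1.13 CPM against 3.95 and 3.11 CPM. It had the largest log2FC of the tested members, 1.33, with an SE of 0.36, an edgeR adjusted p of 0.00686 and a 95% interval from 0.57 to 2.08. The times did not overlap for either of these genes. For MT1F the call was lost with DESeq2 (adjusted p = 0.0679) and without replicate 2 of 4 h (edgeR adjusted p = 0.0931).

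MT1G had 3 reads in each 4 h library, and 11 and 4 at 8 h. Only 1 library had a CPM above 1, so the gene was not tested. The 15 reads of 8 h against the 6 of 4 h gave a ratio of 2.89 after scaling to the library totals, with an exact 95% interval from 1.06 to 9.10 that covers counting error only. When no CPM filter was applied, its log2FC of 1.58 did not pass (edgeR adjusted p = 0.169). MT1A had 0 reads in each of the 4 libraries, and 169 of its windows were unique. A count of 0 allows up to 3 reads, which is 0.291 to 0.372 CPM depending on the library, by raw library totals without the TMM correction.

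**Figure D2:**
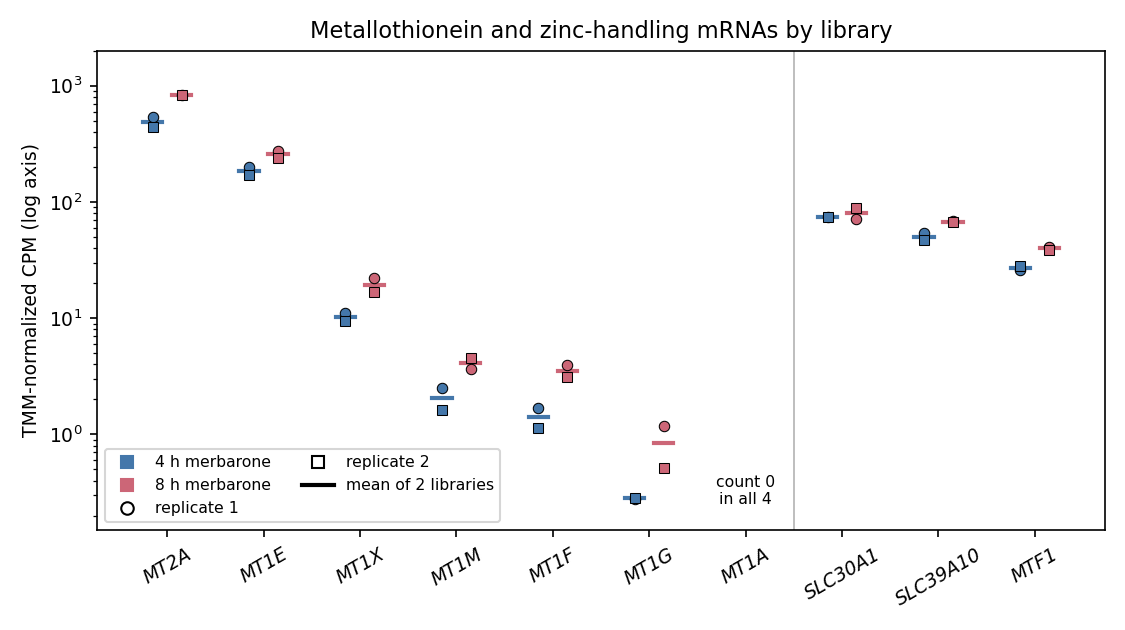
TMM-normalized CPM of the 10 genes in the 4 libraries on a log axis, blue for 4 h and red for 8 h, circles for replicate 1 and squares for replicate 2, with a bar at the mean of each time. The 8 h points lie above the 4 h points in every gene with reads other than SLC30A1, where they overlap, and MT1A has a count of 0 in all 4 libraries.

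Summed over the 7 metallothionein members, the level was 749.1 and 623.3 CPM at 4 h and 1132 and 1097 CPM at 8 h, a ratio of means of 1.62. MT2A made up 71.2% and 70.7% of this sum at 4 h and 72.9% and 75.8% at 8 h. MT1E gave 26.7% and 27.2% in the 4 h libraries, against 24.4% and 22.0% in those of 8 h. The remaining members together gave the small rest. The summed level therefore followed MT2A and MT1E. The share of MT2A was higher and that of MT1E lower in both 8 h libraries than in both 4 h libraries, a difference that was not tested.

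To compare levels between genes, CPM was divided by exon length. At 4 h the level per kb of exon was 1215 ± 163 CPM for MT2A and 464.7 ± 54.0 CPM for MT1E (SD, n = 2 each). It was 25.5 ± 2.62 CPM for MT1X, 12.6 ± 0.158 CPM for SLC30A1, 9.64 ± 1.01 CPM for SLC39A10 and 5.19 ± 1.63 CPM for MT1M. MTF1, at 3.40 ± 0.175 CPM, and MT1F, at 3.32 ± 0.915 CPM, overlapped between libraries, and MT1G was last of the genes with reads, at 0.688 CPM.

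At 8 h the level per kb of exon was 2065 ± 11.7 CPM for MT2A, 650.2 ± 63.0 CPM for MT1E and 47.9 ± 9.20 CPM for MT1X. SLC30A1 (13.5 ± 2.02 CPM) and SLC39A10 (13.0 ± 0.0873 CPM) were not separated at this time, and neither were MT1M (10.3 ± 1.62 CPM) and MT1F (8.30 ± 1.39 CPM). MTF1 had 5.03 ± 0.249 CPM per kb and MT1G 2.06 ± 1.13. Division by the number of unique windows in place of exon length gave the same order of the 7 metallothioneins over both times, but another order against the other members. Per kb of unique start positions at 8 h, MT1M had 25.2 ± 3.97 CPM and MT1F 16.7 ± 2.80 CPM, against 15.1 ± 0.101 CPM for SLC39A10 and 13.9 ± 2.07 CPM for SLC30A1 (SD, n = 2 each). On this scale MT1M was above both transporter genes and MT1F overlapped them, where per kb of exon both means were below. At 4 h MT1F, at 6.68 ± 1.84 CPM, was above MTF1, at 3.85 ± 0.199 CPM, with no overlap between libraries. The place of MT1M and MT1F among the members outside the family therefore depends on the length used.

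MTF1 (chromosome 1, 38275246 to 38325264, minus strand, hg19), which encodes the zinc sensor itself, had 26.02 and 27.99 CPM at 4 h and 41.3 and 38.5 CPM at 8 h. Each time stood apart from the other, with replicates differing by less than the times. The log2FC was 0.56 (SE 0.12, edgeR adjusted p = 0.000856).

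SLC39A10 (chromosome 2, 196521950 to 196602424, plus strand, canonical transcript) encodes the importer ZIP10. It had 54.1 and 46.6 CPM at 4 h and 68.2 and 67.5 CPM at 8 h. The times did not overlap, and the log2FC was 0.43 (SE 0.10, edgeR adjusted p = 0.00233). Without replicate 2 of 4 h the call was lost (log2FC 0.33, edgeR adjusted p = 0.0748).

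SLC30A1 (chromosome 1, 211744910 to 211752503, minus strand) encodes the exporter ZnT1 and is one of the best known targets of MTF1 beside the metallothioneins. It had 73.6 and 74.9 CPM at 4 h and 71.2 and 88.0 CPM at 8 h. The 8 h libraries lay on either side of those of 4 h. The log2FC of 0.10 had a 95% interval from −0.12 to 0.31 (SE 0.10, edgeR adjusted p = 0.480). The upper end of this interval lay just above the lower end of that of MT1E (0.30) and below that of MT2A (0.59), and the difference between these genes was not tested. With scaling by library size alone its log2FC changed sign, to −0.01, and likewise without replicate 2 of 8 h, to −0.06.

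**Figure D3:**
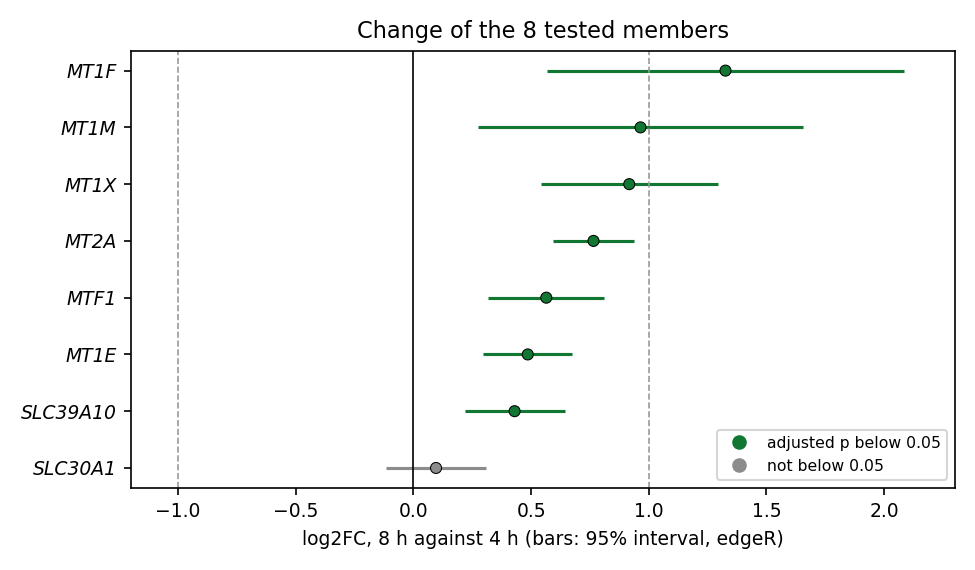
log2FC between 8 h and 4 h of the 8 tested members with 95% intervals from edgeR, green where the adjusted p was below 0.05 and grey where it was not, and dashed lines at an absolute log2FC of 1. MT1F has the largest value, 1.33, and SLC30A1, at 0.10, is the only one whose interval includes 0.

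Promoters were examined for the element that MTF1 binds. RefSeq windows on GRCh38.p14, with 250 bases before and 50 after the transcription start, were found for 5 of the 10 members (MT2A, MT1X, MTF1, SLC30A1 and SLC39A10, the last with 2 windows). The core of the metal response element was searched on both strands as TGCACNC or TGCGCNC, where N is any base. The windows of MT2A, MT1X and SLC30A1 are shown because they held more than 1 core, 5′ to 3′ in the direction of the gene, with the cores in capitals.

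MT2A (chr16:56608334-56608633, plus strand, 8 cores): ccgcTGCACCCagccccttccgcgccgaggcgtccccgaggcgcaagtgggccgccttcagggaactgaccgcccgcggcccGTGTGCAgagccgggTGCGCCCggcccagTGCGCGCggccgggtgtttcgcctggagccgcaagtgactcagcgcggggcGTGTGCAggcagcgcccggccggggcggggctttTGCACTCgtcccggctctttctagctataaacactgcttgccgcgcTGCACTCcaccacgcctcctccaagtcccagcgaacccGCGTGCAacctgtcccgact
MT1X (chr16:56682220-56682519, plus strand, 4 cores): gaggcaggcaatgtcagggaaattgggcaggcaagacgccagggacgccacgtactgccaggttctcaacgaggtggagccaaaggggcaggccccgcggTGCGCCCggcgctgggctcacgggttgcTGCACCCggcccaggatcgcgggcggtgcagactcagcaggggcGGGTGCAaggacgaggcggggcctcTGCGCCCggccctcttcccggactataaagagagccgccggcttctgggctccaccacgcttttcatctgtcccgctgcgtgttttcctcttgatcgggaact
SLC30A1 (chr1:211579112-211579411, minus strand, 2 cores): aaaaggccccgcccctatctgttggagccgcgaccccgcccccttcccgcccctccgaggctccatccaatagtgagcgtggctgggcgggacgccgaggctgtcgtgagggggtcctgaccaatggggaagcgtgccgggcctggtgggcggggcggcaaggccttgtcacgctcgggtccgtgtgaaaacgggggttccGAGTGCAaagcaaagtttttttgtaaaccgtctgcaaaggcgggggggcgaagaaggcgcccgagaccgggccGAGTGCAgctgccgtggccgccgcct

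Of 35116 promoter windows of the same length, 29.6% held at least 1 core, 8.60% at least 2, 0.601% at least 4 and 0.0199% (7 windows) at least 8. MT2A was among those 7. Its cores began at −246, −168, −153, −139, −88, −54, −8 and 31 relative to the start, where 1 is the first transcribed base. Those of MT1X began at −150, −122, −78 and −53, and those of SLC30A1 at −49 and 25. Of the SLC39A10 windows, one held 1 core, after the start, and the other none, and MTF1 had none in its window. A core of the antioxidant element, searched as TGACNNNGC on both strands, occurred once each in MT2A, MT1X and SLC30A1, and in 13.3% of all windows. A TATA box (TATAAA) began at −29 in MT2A and −30 in MT1X, was in none of the other members' windows, and was in 11.5% of all windows. No match overlapped another. These matches describe the letters of the windows and do not show binding. Only 5 of the 10 members had a window, and the relation of the cores to the changes in mRNA was not tested.

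**Figure D4:**
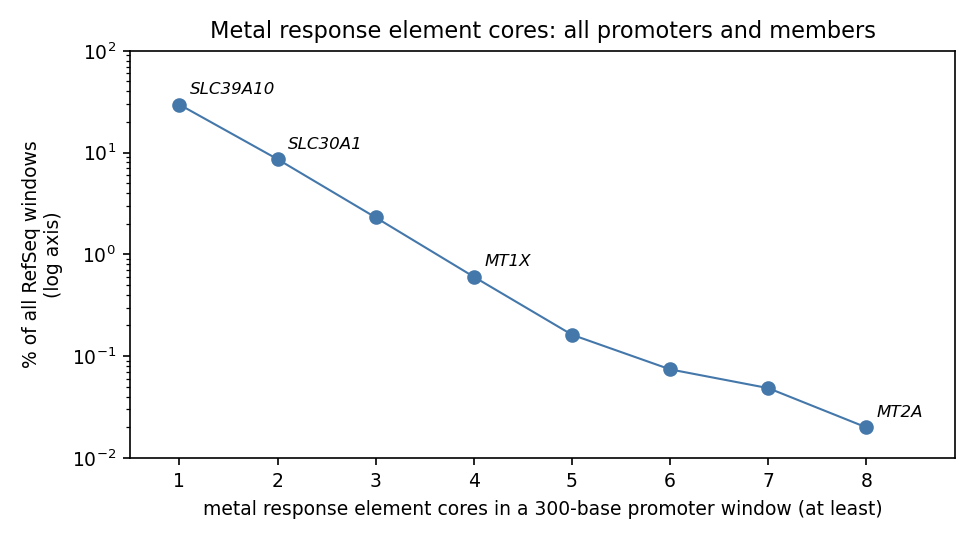
Percentage of all 35116 RefSeq promoter windows (log axis) that hold at least the number of metal response element cores given on the horizontal axis, with the members named at their own number. MT2A, with 8 cores, lies at 0.0199% and MT1X, with 4, at 0.601%, while SLC30A1 and SLC39A10 lie at numbers that 8.60% and 29.6% of windows reach.

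The remaining metallothionein genes and pseudogenes added almost no reads. Of 11 further names, 9 were listed, 8 of these were at 0 in all 4 libraries, and MT1DP, a pseudogene, had 0 to 2 reads. The genes at 0 included MT1HL1, with 243 unique windows, MT3, the brain form, with 192, MT1B, with 179, and MT1H, with 154. They also included MT4, with 56 unique windows, and MT1L, with only 8. MT1DP had no window of 75 bases, and windows were not counted for MT1IP and MT1JP. For these genes with few, no or uncounted windows, a count near 0 says little. Apart from the 5 reads of MT1DP, the reads retained for the listed genes of the family came from the members described above.

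The other zinc transporters were compared in the same fit. Of 10 other exporters, which are the SLC30 genes and TMEM163, 7 were tested, with a median log2FC of 0.10. SLC30A6, which encodes a Golgi transporter, fell from 54.1 ± 1.05 to 38.9 ± 0.374 CPM (SD, n = 2 each; log2FC −0.48, edgeR adjusted p = 0.00118). It was the only one called, against 18.8% of all tested genes called lower. The tested exporters without a call had log2FCs from −0.38 to 0.39.

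Of 13 other importers, the SLC39 genes, 10 were tested, with a median log2FC of 0.19, and 4 were called higher and none lower. SLC39A14 (ZIP14), a plasma membrane importer of zinc and iron, rose from 255.4 ± 7.02 to 434.5 ± 17.1 CPM (SD, n = 2 each; log2FC 0.77, edgeR adjusted p = 1.86e-07). SLC39A13 rose by a log2FC of 0.33, SLC39A9 by 0.31 and SLC39A6, a plasma membrane importer known to pair with SLC39A10, by 0.24 (edgeR adjusted p = 0.00285, 0.00575 and 0.0316). SLC39A14 was called under every alternative tried, but these smaller changes were not. The call of SLC39A13 was lost without replicate 1 of 4 h (edgeR adjusted p = 0.0507), and that of SLC39A9 with library size alone (0.0567) and without replicate 2 of 4 h (0.115). That of SLC39A6 was lost with DESeq2 (adjusted p = 0.0936), with library size alone (0.226), and without replicate 1 (0.0527) or replicate 2 (0.309) of 4 h. With SLC39A10, 5 of the 11 tested importers were called higher by edgeR, and 4 by DESeq2, beside 19.9% and 14.3% of all tested genes. Of the 8 tested exporters including SLC30A1, 0 were called higher by edgeR, Limma-Voom or DESeq2, and 0 at an unadjusted edgeR p below 0.05. The shares of all genes with Limma-Voom and at that unadjusted p are not given here. The difference between importers and exporters was not tested, and these family labels do not say at which membrane a protein works.

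**Figure D5:**
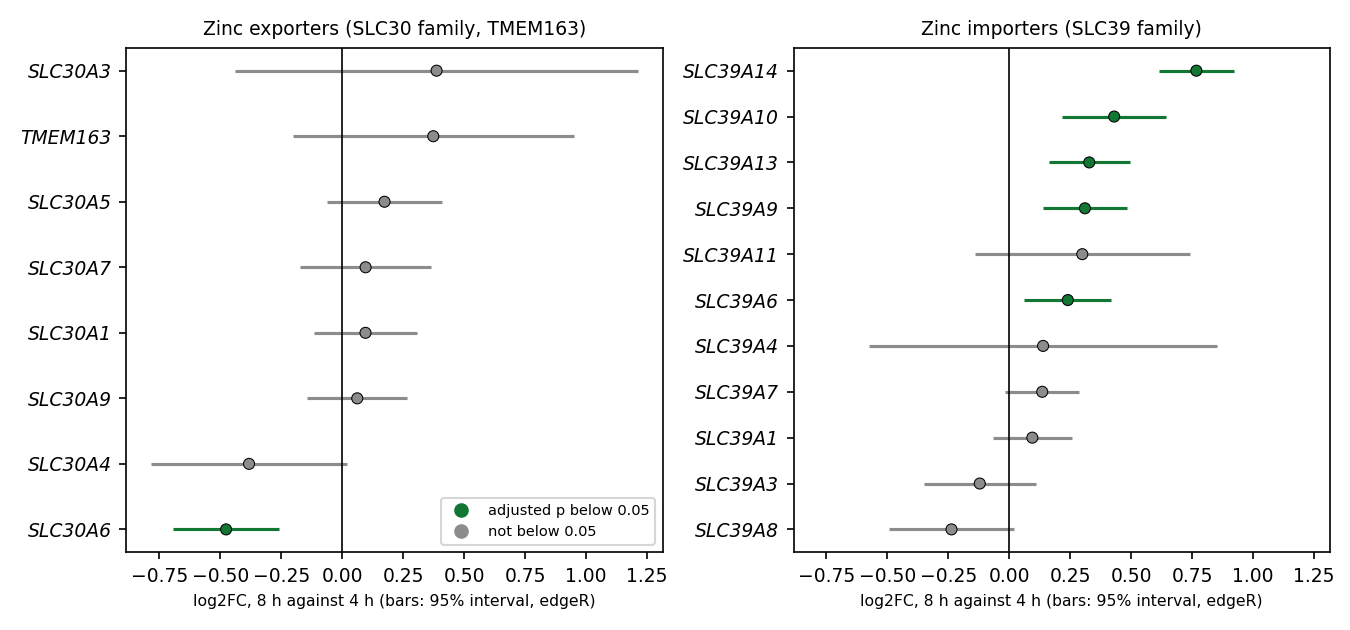
log2FC between 8 h and 4 h of the tested zinc exporters (left) and importers (right), members included, with 95% intervals from edgeR, green where the adjusted p was below 0.05 and grey where it was not. Of the 11 importers 5 are called higher, led by SLC39A14 at 0.77, while the only call among the 8 exporters is SLC30A6, lower at −0.48.

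Of 6 other genes known as MTF1 targets, 5 were tested and none was called by edgeR, Limma-Voom or DESeq2. Over all tested genes edgeR called 19.9% higher and 18.8% lower. At an unadjusted p below 0.05, 1 of the 5 was higher in edgeR and Limma-Voom and 0 in DESeq2. The share of all genes at that p was not counted. SELENOH, the one with the highest mean level, had 40.6 ± 4.15 and 48.2 ± 5.13 CPM (SD, n = 2 each; log2FC 0.25, edgeR adjusted p = 0.0986). Copper, which metallothioneins also bind, was represented by 11 genes, of which 10 were tested. SLC31A2, a copper transporter gene, rose (log2FC 0.85, edgeR adjusted p = 0.000159), and ATP7B, a copper-exporting ATPase, fell from 4.28 ± 0.630 to 2.15 ± 0.285 CPM (SD, n = 2 each; log2FC −0.98, edgeR adjusted p = 0.0180). The call of ATP7B was lost with DESeq2 (adjusted p = 0.131) and without replicate 2 of 4 h (edgeR adjusted p = 0.156) or of 8 h (0.0651). The other 8 were not called, so edgeR called 1 of 10 higher and 1 lower, beside 19.9% and 18.8% of all tested genes.

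Genes of other responses known to involve metallothioneins were also compared, and not all of them rose. Of 10 oxidative and metal stress genes, all tested, 7 were higher and none lower, 5 of them with a log2FC above 1, and the median log2FC was 1.11. Over all tested genes 19.9% were called higher, and 1.45% were called higher with a log2FC above 1. The 7 higher stress genes were HSPA1A (1.53), HMOX1 (1.52), SLC7A11 (1.45), OSGIN1 (1.43), HSPA1B (1.33), TXNRD1 (0.89) and SRXN1 (0.50), with edgeR adjusted p-values of at most 0.000184. DNAJB1 (0.24), GCLM (0.22) and NQO1 (−0.06) were not called (edgeR adjusted p = 0.0528, 0.260 and 0.595). HSPA1A and HSPA1B are near copies of each other, so their split is uncertain. Of 8 glucocorticoid-responsive genes, 7 were tested, and they went both ways, with 3 called higher and 4 lower beside 19.9% and 18.8% of all tested genes. PER1 (1.49), DUSP1 (1.31) and KLF9 (0.67) rose, while ERRFI1 (−1.27), TSC22D3 (−0.64), FKBP5 (−0.51) and SGK1 (−0.51) fell, each with an edgeR adjusted p of at most 0.000664. These lists too were chosen with earlier results of these data known. The part of these responses in the metallothionein values was not tested.

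The tested genes whose pattern over the 4 libraries was closest to the median pattern of the 5 tested metallothioneins were sought by Euclidean distance of centred log2-CPM. The metallothioneins help make this median, so their own distances are favoured by construction, and MT2A, at 0.0118, is no independent match. The 5 closest genes outside the family were RAPH1, PHACTR2, RSBN1, NHSL1 and MSMP, at distances from 0.0381 to 0.0699. The other tested metallothioneins were farther away, at 0.27 (MT1M) to 0.39 (MT1F), and SLC30A1 lay at 0.75. By closeness, MT1M ranked 364, MT1X 504, MT1E 639 and MT1F 1024 among all tested genes, so many genes outside the family were closer than these members. MT1E, with 1795 to 2592 reads per library, lay at 0.33, farther than MT1M with its few reads. Only 4 libraries stand behind these distances, and the part of low counts in them was not tested.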

How the data were processed

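RNA-Seq counts of 4 libraries were analysed, 2 at 4 h and 2 at 8 h of merbarone. Per the paper's methods and the labels, the authors mapped single reads of 75 bases to hg19 with Bowtie 1.2.0, kept reads with 1 genomic position, and deposited raw counts per NCBI Gene identifier, neither normalized nor filtered. The counting tool, gene annotation and use of strand are not given in the sources used here. Unspliced, single-position mapping lowers counts of short-exon and copied genes.

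Symbols came from RefSeq (GRCh38.p14), positions and exons from GENCODE on GRCh37 (Ensembl canonical transcripts, for MT1E the 3-exon transcript from the canonical start). The 12559 genes that exceeded a CPM of 1 in 2 or more libraries were tested with edgeR 4.0.16 in R 4.3.3 (TMM, quasi-likelihood, time only, Benjamini-Hochberg over all tested genes). Standard errors are log2FC over the square root of F. Limma-Voom (limma 3.58.1), DESeq2 1.42.0, other scalings and filters, glmTreat, a replicate block and leaving out libraries were alternatives. The scripts were tested on simulated data. Members and gene lists were chosen with earlier results of these data known. Named genes were the 10 members, from each list the called genes or else the most abundant, and the 5 closest in pattern.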

Additional observations from a re-analysis of the deposited data

How the results depend on the processing

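Of the 10 members, 7 were called higher, and the count stayed at 7 with Limma-Voom, library size alone, RLE size factors, no CPM filter and a CPM minimum of 2, and was 5 with DESeq2. Over all tested genes 19.9% were called higher in the main fit and 14.3% with DESeq2. The other counts in this section have no share of all genes beside them. Whether they moved with the calls over all genes was not tested. With 1 library left out in turn it ran from 4 to 7, with the lone library of a time assumed to vary like those of the other, and it was 4 without replicate 2 of 4 h. The count past the fold threshold was 1, and it was 0 with DESeq2, 0 with glmTreat (a test against a log2FC of 1), and 0 to 3 with 1 library left out. MT2A, MT1E, MT1X and MTF1 were called under all 11 alternatives each, with log2FCs of 0.64 to 0.90 for MT2A and 0.37 to 0.60 for MT1E, 0.70 to 1.09 for MT1X and 0.46 to 0.62 for MTF1. SLC30A1 ran from −0.06 to 0.25, at −0.0107 with library size alone and −0.0611 without replicate 2 of 8 h, and was not called in any. Library size alone moved the median log2FC of all genes to −0.11. With the replicate number as a block, 7 members were called and 1 passed the fold threshold, so the block changed no call. Deviations of same-numbered libraries correlated at 0.0554 over 12559 genes and at 0.115 over the 9396 genes with a mean count of at least 100, and the labels do not say that the numbers pair libraries. Without the CPM filter 8 of the 10 stress genes were called in place of 7, and the other lists kept their counts. Depth limits MT1A, MT1G, MT1M and MT1F, each with at most 37 reads in a library.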
